A study of Homo sapiens with 5 samples.

Results

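The genes described here are TMPRSS2 and SLC45A3, which supply the front part of many gene fusions in prostate cancer, and ERG, ETV1, ETV4 and ETV5, the ETS transcription factor genes they are joined to. These 6 genes were taken by symbol out of 22889 genes with a symbol and a value, and their 23 RefSeq accessions were summed by gene. RNA-seq and ChIP-seq data were deposited for LNCaP and VCaP, both human prostate cancer lines, as 5 samples with 1 per group. RNA-seq compared LNCaP cells given siRNA against LSD1, the histone demethylase encoded by KDM1A, with LNCaP cells given control siRNA. The ChIP-seq peak lists cover LSD1 in LNCaP and VCaP, and in LNCaP also H3T6ph, a phosphate on threonine 6 of histone H3, all from cells with no transfection. All cells spent 3 days in medium with charcoal-stripped serum ahead of a hormone stimulus that the labels do not name. LNCaP comes from a lymph node metastasis and VCaP from a vertebral metastasis, and both are androgen-responsive. The design text asks what LSD1 does in androgen signalling. With 1 sample per group, no value has an error between replicates and no difference was tested across samples.

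TMPRSS2 encodes a membrane serine protease and SLC45A3 encodes prostein, a transporter of the prostate epithelium, and androgen is known to induce both. A fusion places an ETS coding region behind such a promoter, so that a factor with little expression in normal prostate epithelium becomes androgen-driven. ERG is the usual partner of TMPRSS2, which lies on the same chromosome and in the same orientation. ETV1, ETV4 and ETV5 form the PEA3 subgroup of ETS factors, which act downstream of growth factor and MAP kinase signals. VCaP is known to carry a TMPRSS2-ERG fusion. LNCaP is known to carry ETV1 moved into the MIPOL1 region of chromosome 14.

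KDM1A, the targeted gene, was at 6.87 FPKM with LSD1 siRNA and 37.0 FPKM with control siRNA, a log2 fold change of -2.27 on the log2(FPKM + 1) scale. FPKM is a fragment level scaled by transcript length and sequencing depth. Both libraries are of the LNCaP line, and a bulk value does not tell fewer cells with a transcript from less RNA per cell. All 6 luminal prostate markers reported here (KLK3, KLK2, HOXB13, FOLH1, KRT8 and KRT18) were at 68.6 FPKM or more in both libraries. None of 3 basal markers and 1 of 5 endothelial markers, VWF, reached 1 FPKM, and the endothelial gene CDH5 was listed at 0 in both libraries. CD68 from the immune list and COL1A1 and ACTA2 from the fibroblast list also passed 1 FPKM, while PTPRC, CD3E and DCN did not. The endothelial list, which matters because endothelium is known to express ERG, summed to 2.54 FPKM with LSD1 siRNA and 1.99 FPKM with control siRNA. Sequencing of the LSD1 siRNA library was shallower, at about 77.4% of the other library as read from low values, and its part in the differences below was not tested.

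The starts of 3 of the 6 genes are shown first. A fusion of this kind keeps the promoter of the front partner, such as SLC45A3. It leaves behind that of the ETS gene, such as ETV1 or ERG. This does not describe the ETV1 moved into the MIPOL1 region in LNCaP, where the promoter in use was not measured. Each run holds 250 bases before and 50 bases after the outermost RefSeq start (GRCh38.p14, minus strand, written 5′ to 3′). Capitals mark GGAA or its reverse complement TTCC, the core that ETS factors bind. SLC45A3 is at chr1:205680460-205680759, ETV1 at chr7:13991376-13991675 and ERG at chr21:38660618-38660917.
SLC45A3: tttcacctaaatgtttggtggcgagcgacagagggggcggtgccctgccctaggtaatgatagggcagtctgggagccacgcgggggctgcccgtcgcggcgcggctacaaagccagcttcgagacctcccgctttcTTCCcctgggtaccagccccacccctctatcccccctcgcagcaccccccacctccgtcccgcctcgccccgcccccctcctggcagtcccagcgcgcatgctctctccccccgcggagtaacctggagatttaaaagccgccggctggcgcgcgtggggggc
ETV1: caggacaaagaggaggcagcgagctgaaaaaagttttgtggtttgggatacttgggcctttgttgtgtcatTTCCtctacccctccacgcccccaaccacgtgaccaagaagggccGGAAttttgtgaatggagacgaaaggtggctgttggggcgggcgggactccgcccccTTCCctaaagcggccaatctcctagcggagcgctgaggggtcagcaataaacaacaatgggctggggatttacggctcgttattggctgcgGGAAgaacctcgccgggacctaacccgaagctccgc
ERG: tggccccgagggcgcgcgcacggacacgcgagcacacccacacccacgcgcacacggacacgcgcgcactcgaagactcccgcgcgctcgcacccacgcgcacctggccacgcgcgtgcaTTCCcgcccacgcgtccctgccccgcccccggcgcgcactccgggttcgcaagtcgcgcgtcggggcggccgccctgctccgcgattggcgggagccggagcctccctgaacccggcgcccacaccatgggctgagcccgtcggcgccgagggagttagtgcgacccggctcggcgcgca
The ETV1 run held the core 4 times, and the SLC45A3 and ERG runs held it once each. This core is found in 95.5% of the 35116 promoter runs of the table, so its presence sets none of them apart. The longer ETS word CCGGAAGT, present in 4.14% of all runs on either strand and containing the core, was in none of the 3. ETV1 has 6 RefSeq starts in the table, ERG has 4 and SLC45A3 has 1. The outermost runs of SLC45A3, ETV1 and ERG had a G and C content of 69.0%, 57.3% and 77.0%, against a median of 58.7% over all runs. The other ERG runs held the core 2, 2 and 6 times, at 44.3%, 45.7% and 38.7% G and C. Over all ETV1 runs the core count ranged from 3 to 6, and G and C from 42.3% to 59.0%. The values of the runs shown thus describe 1 start of each gene.

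The fusion partners TMPRSS2 and SLC45A3 and the factor ETV1 were expressed in LNCaP and all had lower values with LSD1 siRNA, as had 52.9% of protein-coding genes. ERG, ETV4 and ETV5 stayed under 1 FPKM in both libraries. SLC45A3 alone passed the 1.5-fold rule, 1 of the 3 genes measured, against a background of 1.18% of 11753 protein-coding genes lower past that size. No member was higher past 1.5-fold, where the background was 1.04%, and none passed 2-fold, which 0.128% of protein-coding genes did on the lower side and 0.111% on the higher side. The authors' deposited table called no accession of these genes, of 8 that it tested, while it called 0.642% of all accessions tested.

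SLC45A3 (NM_033102; chromosome 1, 205626981 to 205649630, hg19) was at 114 FPKM with LSD1 siRNA and 173 FPKM with control siRNA. The LSD1 siRNA value came to 66.0% of the other, with a log2 fold change of -0.60, just past the log2 value of 0.585 that marks 1.5-fold. With a pseudocount of 5 FPKM in place of 1 it was -0.58, and after rescaling to the median protein-coding gene it was also -0.58, no longer past the rule in either case. Of protein-coding genes at 1 FPKM or more, 1.13% had a lower log2 fold change. The authors' deposited table gave it a p-value of 0.00800 and a q-value of 0.342, the lowest q among these genes.

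TMPRSS2 (chromosome 21, 42836478 to 42880085) was the highest of the 6, at 279 FPKM with LSD1 siRNA and 357 FPKM with control siRNA. Its level exceeded that of 98.8% of protein-coding genes with LSD1 siRNA and of 99.1% with control siRNA. The log2 fold change was -0.36, short of the 1.5-fold rule, with 5.17% of protein-coding genes lower. Its main accession, NM_005656, was at 255 FPKM with LSD1 siRNA and 325 FPKM with control siRNA. NM_001135099, which starts from another first exon, was at 23.2 FPKM with LSD1 siRNA and 31.9 FPKM with control siRNA. The share of this accession was 8.34% with LSD1 siRNA and 8.92% with control siRNA, so the values of both forms were lower with little change in their proportion.

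ETV1 (chromosome 7, 13930856 to 14031050) was at 21.02 FPKM with LSD1 siRNA and 29.4 FPKM with control siRNA, a log2 fold change of -0.47. It was the only PEA3 factor above 1 FPKM in LNCaP. Its difference lay mostly in 1 of 7 accessions. NM_001163150 was at 5.65 FPKM with LSD1 siRNA and 10.9 FPKM with control siRNA, a log2 fold change of -0.84. The difference was -5.23 FPKM for this accession and -8.41 FPKM for the gene, and with this accession alone ETV1 would pass 1.5-fold. NM_004956 was at 9.04 FPKM with LSD1 siRNA and 10.8 FPKM with control siRNA, and NM_001163149 was at 6.02 FPKM with LSD1 siRNA and 7.15 FPKM with control siRNA. These 2 forms differed by log2 values of -0.23 and -0.22. The share of NM_001163150 among ETV1 accessions was therefore 26.9% with LSD1 siRNA and 37.0% with control siRNA. Accession values are estimates from reads shared between forms, and the authors' deposited table gave NM_001163150 a p-value of 0.425.

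**Figure D1:**
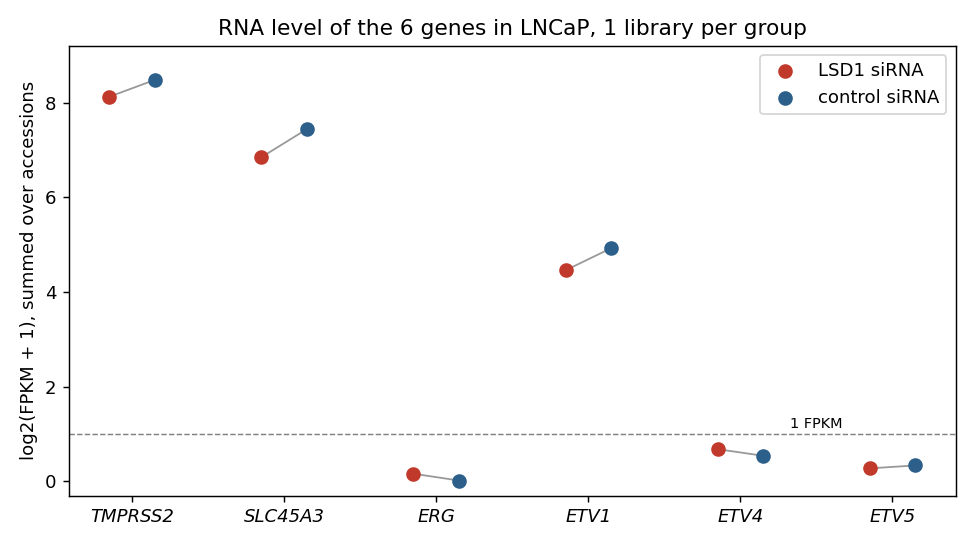
RNA level of the 6 genes as log2(FPKM + 1), summed over accessions, in the LNCaP library with LSD1 siRNA (red, left) and the library with control siRNA (blue, right); each point is 1 library. TMPRSS2, SLC45A3 and ETV1 lie above the dashed line at 1 FPKM and are lower with LSD1 siRNA, while ERG, ETV4 and ETV5 lie below it.

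**Figure D2:**
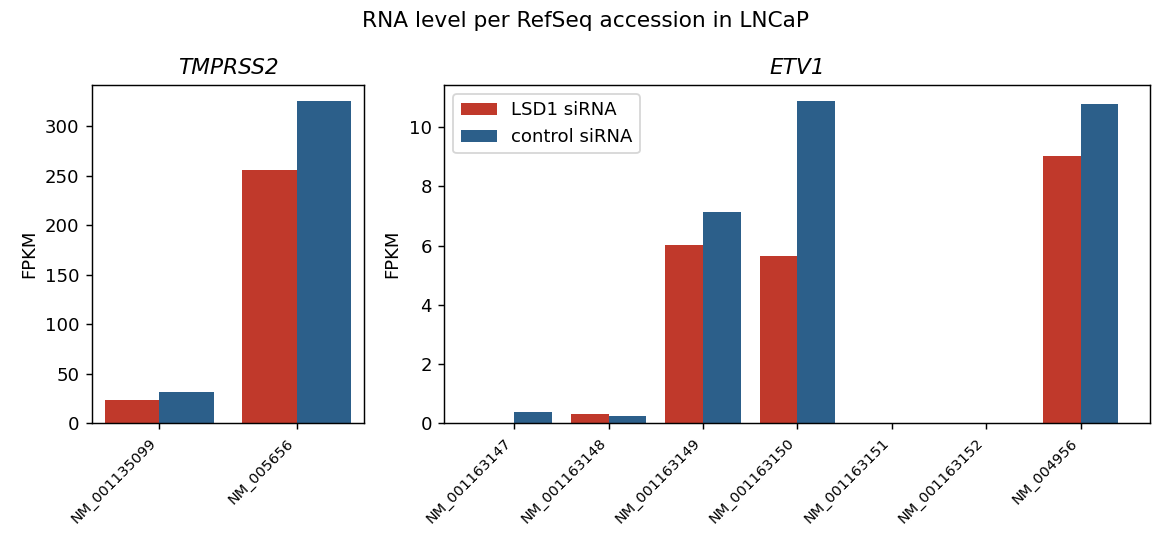
FPKM of each RefSeq accession of TMPRSS2 (left) and ETV1 (right) with LSD1 siRNA (red) and control siRNA (blue), 1 library each. Among the ETV1 accessions NM_001163150 shows the widest gap, 5.65 FPKM with LSD1 siRNA and 10.9 FPKM with control siRNA.

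ERG (chromosome 21, 39739183 to 40033704) was near 0 in LNCaP, at 0.120 FPKM with LSD1 siRNA and 0.0135 FPKM with control siRNA over 7 accessions. NM_001243432 was at 0.0949 FPKM with LSD1 siRNA and listed at 0 with control siRNA, and the authors' deposited table did not test it (status NOTEST). ETV4 (chromosome 17, 41605211 to 41623800) was at 0.605 FPKM with LSD1 siRNA and 0.457 FPKM with control siRNA. Its leading accession NM_001986 had the opposite sign to the sum, with 0.352 FPKM after LSD1 siRNA and 0.457 FPKM after control siRNA. ETV5 (chromosome 3, 185764106 to 185826901), with the single accession NM_004454, was at 0.211 FPKM with LSD1 siRNA and 0.264 FPKM with control siRNA. At these levels no difference between the libraries was detectable.

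Genes whose pair of values lay closest to a member were found by the Euclidean distance of the log2(FPKM + 1) values of the 2 libraries. For SLC45A3 they were FDFT1, at 116 FPKM with LSD1 siRNA and 169 FPKM with control siRNA (distance 0.04), and SMS (0.07). For TMPRSS2 they were PRKACB (distance 0.12) and PPIA (0.12), and for ETV1 they were BRIX1 (0.04) and ZMYND11 (0.05). With only 2 libraries this likeness covers a level and 1 difference.

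Across the whole ETS family the differences ran both ways. Of 28 family genes 18 reached 1 FPKM, 9 of them lower and 9 higher with LSD1 siRNA, and their median log2 fold change was 0.01, against -0.01 for all protein-coding genes. Past 1.5-fold lay 1.04% of protein-coding genes on the higher side and 1.18% on the lower side. Among the family genes only ETS2 passed, a broadly expressed ETS factor whose gene lies between ERG and TMPRSS2. It was at 8.30 FPKM with LSD1 siRNA and 5.01 FPKM with control siRNA (log2 0.63), and it did not pass with a pseudocount of 5 FPKM. The epithelial factor ELF3 was next, at 70.8 FPKM with LSD1 siRNA and 47.3 FPKM with control siRNA (log2 0.57). On the lower side ETV1 had the largest difference of the family. SPDEF, the prostate-derived ETS factor of luminal cells, was at 70.6 FPKM with LSD1 siRNA and 97.2 FPKM with control siRNA (log2 -0.46). EHF, another epithelial ETS factor and the most abundant of the family, was at 128 FPKM with LSD1 siRNA and 170.0 FPKM with control siRNA (log2 -0.41). The 3 family genes highest in LNCaP with control siRNA, EHF, SPDEF and ELF3, thus did not share a direction.

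**Figure D3:**
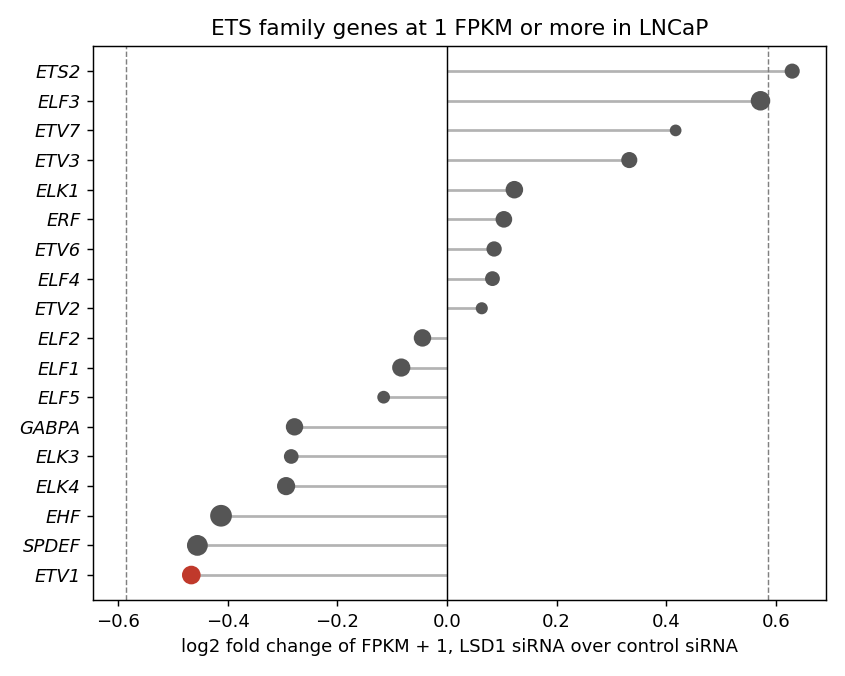
Log2 fold change of FPKM + 1, LSD1 siRNA over control siRNA, for the 18 ETS family genes at 1 FPKM or more in either LNCaP library; point size grows with the control level and ETV1 is in red. Dashed lines mark 1.5-fold, which ETS2 alone passes, and 9 genes lie on each side of 0.

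Other genes known as front partners of ETS fusions were measured for comparison with TMPRSS2 and SLC45A3. Of 8 on the list 7 had lower values with LSD1 siRNA, as had 52.9% of protein-coding genes. None passed 1.5-fold, which 1.18% of protein-coding genes did on the lower side and 1.04% on the higher side. Their median on the log2 scale was -0.16. ACSL3, a fatty acid activating enzyme gene, was at 111 FPKM with LSD1 siRNA and 154 FPKM with control siRNA (log2 -0.46). KLK2, an androgen-induced kallikrein gene, had a log2 fold change of -0.41, FOXP1 one of -0.22 and HNRNPA2B1 one of -0.17. Within FOXP1, a forkhead factor gene, the accession NM_001244816 was at 1.75 FPKM with LSD1 siRNA and 6.90 FPKM with control siRNA (log2 -1.52). The authors' deposited table called this accession, with a q-value of 0.000268 from 1 library per group. It was the 1 call on this list, and the sum over FOXP1 accessions was 8.55 FPKM with LSD1 siRNA and 10.1 FPKM with control siRNA. The luminal markers, which include KLK2, were also lower, 6 of 6 beside 52.9% of protein-coding genes, and none passed 1.5-fold. Their summed level was 3726 FPKM with LSD1 siRNA and 4723 FPKM with control siRNA, and their median on the log2 scale was -0.36. The keratin genes KRT18 and KRT8 had log2 fold changes of -0.43 and -0.37, and KLK3, the gene of prostate-specific antigen, one of -0.35. The 4 markers of other cell types at 1 FPKM or more were all higher with LSD1 siRNA, where 52.9% of protein-coding genes were lower. Both libraries are of the LNCaP line, so these genes are named by the cell type they usually mark. CD68 of macrophages was at 16.2 FPKM with LSD1 siRNA and 11.0 FPKM with control siRNA (log2 0.52), and the collagen gene COL1A1 at 11.7 FPKM with LSD1 siRNA and 8.77 FPKM with control siRNA (log2 0.38). The smooth muscle actin gene ACTA2 had a log2 fold change of 0.36 and VWF of endothelium one of 0.23, while PTPRC, CD3E, DCN, PECAM1 and CDH5 stayed under 1 FPKM in both libraries. The part of the luminal and other markers in the lower values of SLC45A3, TMPRSS2 and ETV1 was not tested.

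Genes reported to be raised by ERG or ETV1 in prostate cells showed no common direction. Of 12 listed, 5 reached 1 FPKM, 3 of them lower and 2 higher. None passed 1.5-fold, which 1.18% of protein-coding genes did on the lower side and 1.04% on the higher side. A count of 0 among so few genes therefore carries little information on the list. PLA1A, a phospholipase gene, was at -0.39 and CXCR4, a chemokine receptor gene, at 0.36 on the log2 scale, with PLAT at 0.16 and KCNS3 at -0.09. Genes of MAP kinase output, the pathway known to induce ETV4 and ETV5, had 7 of 10 members at 1 FPKM, and their median on the log2 scale was -0.00. DUSP5, a phosphatase that acts on ERK, was at 11.7 FPKM with LSD1 siRNA and 6.24 FPKM with control siRNA (log2 0.81). It was the 1 gene of this list past 1.5-fold. The authors' deposited table called it, with a q-value of 0.0369 from 1 library per group, as it called 0.642% of all accessions tested. DUSP4, a related phosphatase, was at -0.51, with DUSP6 at 0.42 and SPRY2 at -0.28 on the log2 scale. Among 9 regulators of ETS proteins none passed 1.5-fold, and with the same background shares this count too carries little information. ATXN1, ATXN1L and CIC, which work together as a repressor of PEA3 genes, had log2 fold changes of 0.31, 0.26 and 0.22, and CUL4A, a ubiquitin ligase scaffold, one of -0.22.

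The peak lists were then searched inside each gene interval and within 50 kb of it. LSD1 had 6 called peaks near these genes in LNCaP, from a list of 11673, and 9 in VCaP, from a list of 9854. H3T6ph had 3, from a list of 4460. An LNCaP LSD1 peak lay within 50 kb of 5 of 6 genes, where 53.0% of 18674 protein-coding genes had one. A VCaP LSD1 peak did so for 6 of 6, where the background was 51.2%, and an H3T6ph peak for 2 of 6, where it was 25.6%. With 6 genes these shares carry little information on the set, and the placing of the peaks is described gene by gene. The score of a peak is the authors' own, and is used here only to rank peaks within a list.

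ERG showed the plainest difference between the lines. No LNCaP LSD1 peak lay inside it and the nearest was 50.2 kb away, just outside the window. VCaP LSD1 had 2 peaks inside ERG and another 31.1 kb past its high-coordinate end, the end at which its transcription starts. The stronger of the inner peaks, at 39940231 to 39942591, spanned 2361 bases and had a score of 113, which ranks 496 of 9854 in that list. It lay 91.1 kb inside the gene from the start end. The other inner peak, at 39779941 to 39780917, had a score of 61.7 and ranked 4529. ERG is 295 kb long, and of 903 protein-coding genes at least as long 79.8% held an LNCaP LSD1 peak, 65.9% a VCaP LSD1 peak and 46.5% an H3T6ph peak. The share of these genes with a VCaP but no LNCaP LSD1 peak was not computed. H3T6ph, measured in LNCaP, had no peak within 245 kb of ERG.

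ETV1 held an LSD1 peak in both lines, at different places. The LNCaP peak, at 13988999 to 13989695, had a score of 112 (rank 1019 of 11673) and lay in the gene body, 41.4 kb from the start end. The VCaP peak, at 14028981 to 14030895, spanned 1915 bases, had a score of 94.1 (rank 969 of 9854) and ended 155 bases short of the start end of the gene. ETV1 is thus the one of the 6 genes with an LSD1 peak called at the start end of its interval, in VCaP, a line whose RNA was not analysed here. The reads behind a peak cannot tell a normal copy of a gene from a rearranged one.

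ETV5 had 2 LNCaP LSD1 peaks, one inside at 185815314 to 185816096 with a score of 65.1 and a weak one 1.36 kb past its low-coordinate end with a score of 51.1. The VCaP LSD1 peak at ETV5 lay outside, 8.33 kb past the high-coordinate end (185835233 to 185836293, score 70.1). Near ETV4 a single place was called in both lines. It was at 41594497 to 41595781 in LNCaP (score 78.5) and 41594258 to 41595117 in VCaP (score 62.1), 9.43 and 10.1 kb from ETV4 and inside the interval of DHX8, an RNA helicase gene. A further VCaP peak also fell in DHX8. This was the only one of the 6 LNCaP LSD1 peaks that met a VCaP LSD1 peak. Over the full lists 10.4% of LNCaP and 12.3% of VCaP LSD1 peaks met one of the other line.

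SLC45A3 had no peak inside, but a place in front of it was called for both LSD1 and H3T6ph in LNCaP. The LSD1 peak lay at 205667622 to 205668585 (score 82.6, rank 3036 of 11673) and the H3T6ph peak at 205667813 to 205668345 (score 77.1, rank 1090 of 4460). They lay 17.99 and 18.18 kb past the start end of SLC45A3, and the gene nearest to them was NUCKS1, at 13.4 and 13.6 kb. No VCaP peak met this place. On the other side, 25.0 kb downstream of SLC45A3, lies ELK4, an ETS gene known to form a chimeric transcript with SLC45A3. A VCaP LSD1 peak at 205600798 to 205601774 (score 71.5) ended 226 bases short of the start end of ELK4, and an H3T6ph peak lay inside ELK4. ELK4 was at 18.5 FPKM with LSD1 siRNA and 22.9 FPKM with control siRNA (log2 -0.29), and values per accession cannot separate a chimera from ELK4 itself.

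TMPRSS2 also had no peak inside. The nearest H3T6ph peak, at 42900400 to 42900792 (score 58.0), lay 20.3 kb and the nearest VCaP LSD1 peak, at 42907669 to 42909073 (score 53.4), lay 27.6 kb past the high-coordinate end, where TMPRSS2 is known to start. The 2 places did not overlap. The LNCaP LSD1 peak, at 42805377 to 42806071, lay 30.4 kb away on the other side inside MX1, an interferon-induced gene, with a score of 51.9 that ranked 10830 of 11673. TMPRSS2, the member with the highest RNA level, thus had the weakest LSD1 peaks by rank of those 3 genes with RNA in LNCaP.

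**Figure D4:**
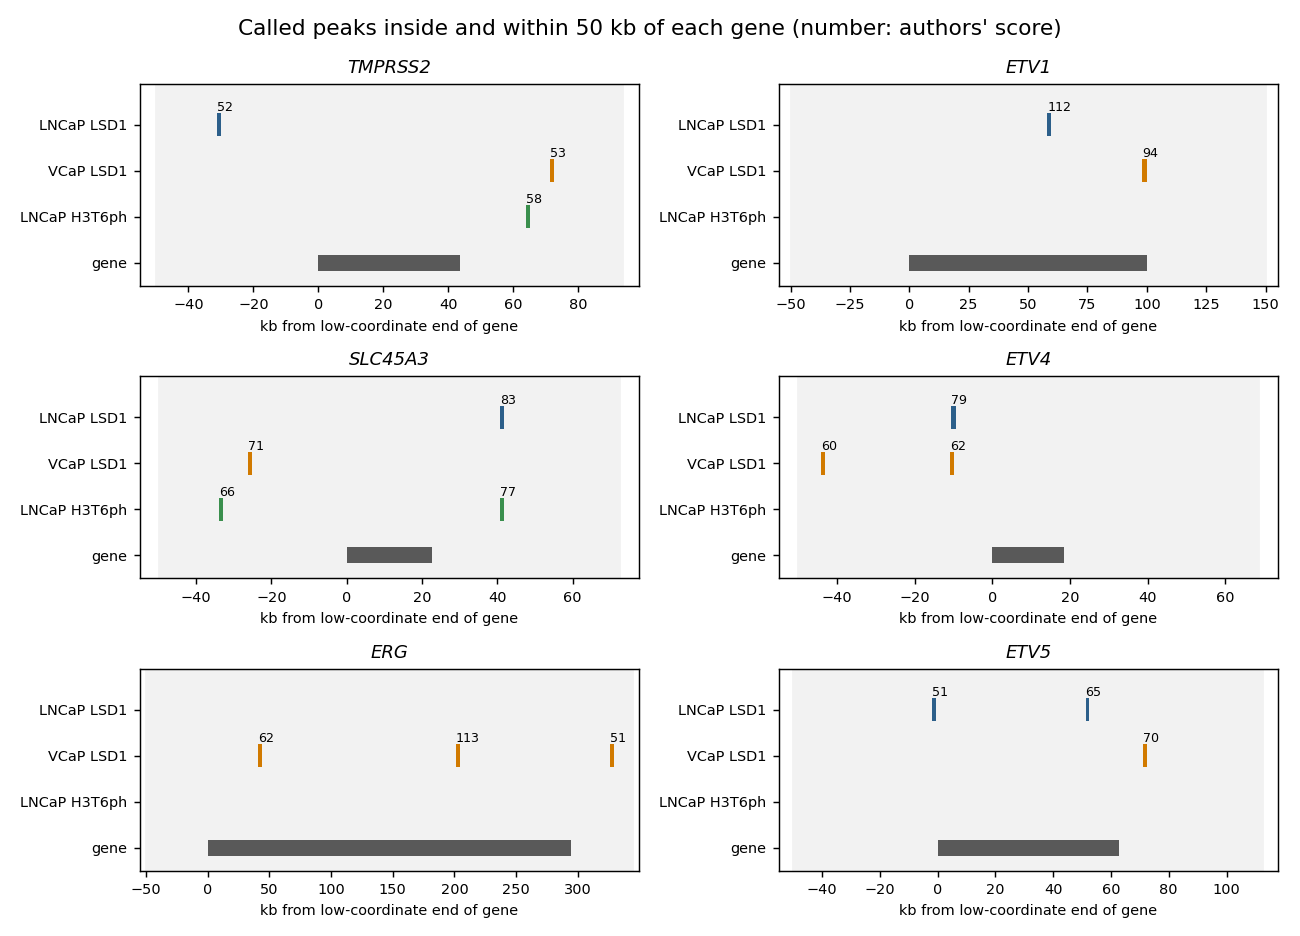
Called peaks of LNCaP LSD1 (blue), VCaP LSD1 (orange) and LNCaP H3T6ph (green) around each gene (dark bar), by distance in kb from its low-coordinate end; the shaded window is the gene with 50 kb on each side, numbers are the authors' scores, and narrow peaks are drawn wider than they are. ERG has VCaP LSD1 peaks only, and the LSD1 peaks of the 2 lines share a place at ETV4 alone.

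The stretch of chromosome 21 between ERG and TMPRSS2, which is lost in some fusions, spans 2.80 Mb (40033705 to 42836477). It held 15 LSD1 peaks in LNCaP and 8 in VCaP, with 3 H3T6ph peaks in LNCaP. Of all LSD1 peaks the stretch held 0.129% in LNCaP (95% Wilson interval 0.0779 to 0.212%) and 0.0812% in VCaP (0.0411 to 0.160%). These 2 intervals overlap. Of the LSD1 peaks on the chromosome the stretch held 9.74% in LNCaP (5.99 to 15.4%) and 3.05% in VCaP (1.56 to 5.91%). The intervals cover counting error only. Chromosome 21 as a whole carried 154 LSD1 peaks in LNCaP and 262 in VCaP, which are 1.32% and 2.66% of the 2 lists. Windows of the same width on each side, chosen after the data were seen, held 20 LSD1 peaks in LNCaP and 32 in VCaP below ERG, and 21 in LNCaP and 35 in VCaP above TMPRSS2. H3T6ph had 17 and 21 peaks in the same 2 windows. The stretch thus held fewer peaks than either side in all 3 lists, and VCaP outnumbered LNCaP on both sides but not within. With every list shortened to the 4460 peaks of highest score, the stretch held 3 LSD1 peaks in LNCaP and 5 in VCaP, so the order of the lines within it turned with list length. The DNA copy number of this stretch in either line was not measured, and its part in these counts was not tested.

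Divided at DSCAM, a division also chosen after the data were seen, the stretch had its gap in VCaP next to ERG. From ERG to DSCAM, a span of 1.35 Mb that includes ETS2, LNCaP had 8 LSD1 peaks and VCaP had 1. These counts are from the full lists and were not repeated with shortened ones. The LNCaP peaks ranked from 1369 to 10188 of 11673, and the VCaP peak ranked 9208 of 9854. In the DSCAM interval LNCaP had 2 and VCaP 4, and from DSCAM to TMPRSS2 LNCaP had 5 and VCaP 3. The highest-scoring LNCaP peak of the stretch lay at 40361980 to 40362847, with a score of 104, and ETS2 was the nearest gene at 165 kb. A closer one lay 9.92 kb below ETS2, at 40166700 to 40167309 (score 61.8), and no VCaP peak lay within 50 kb of ETS2. Only 1 place, at 42417563 to 42418496 in LNCaP and 42416802 to 42418668 in VCaP, was called in both lines. Of 14 genes listed for the stretch 8 reached 1 FPKM in LNCaP. ETS2 alone passed 1.5-fold, as 1.04% of protein-coding genes did on the higher side. SH3BGR had a log2 fold change of 0.30, PSMG1, a proteasome assembly factor gene, one of -0.27, and BRWD1 one of -0.18.

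**Figure D5:**
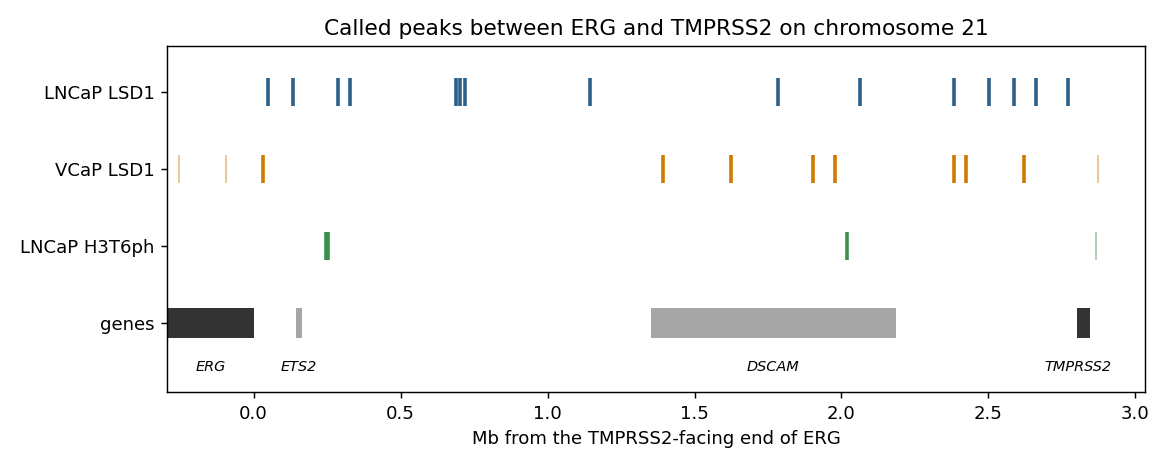
Called peaks (ticks) of the 3 lists between ERG and TMPRSS2, by distance in Mb from the end of ERG that faces TMPRSS2; pale thin ticks are peaks inside ERG or beyond TMPRSS2, and grey bars are ETS2 and DSCAM. LNCaP LSD1 has 15 ticks and VCaP LSD1 has 8, of which 1 lies between ERG and DSCAM.

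The region of chromosome 14 that holds ETV1 in LNCaP was examined in the same way. MIPOL1 and FOXA1, the gene of a pioneer transcription factor, with 50 kb on each side (37617118 to 38114325), held 5 LSD1 peaks in LNCaP, 0 in VCaP and 2 H3T6ph peaks. Chromosome 14 carried 405 LSD1 peaks in LNCaP and 247 in VCaP. Of the 5 LNCaP peaks 3 lay inside MIPOL1, the strongest at 37799777 to 37800597 with a score of 93.3. H3T6ph had a peak inside MIPOL1 at 37838751 to 37839024 with a score of 117 (rank 346 of 4460). It had another, at 38057145 to 38057979, within 1 kb of FOXA1 (score 51.4). MIPOL1 was at 8.92 FPKM with LSD1 siRNA and 12.1 FPKM with control siRNA (log2 -0.40), and FOXA1 was at 137 FPKM with LSD1 siRNA and 163 FPKM with control siRNA (log2 -0.25). The log2 fold change of MIPOL1 lay near that of ETV1, at -0.47. Genes outside this region lay nearer to ETV1, among them SPDEF (-0.46) and ACSL3 (-0.46), so the likeness is not particular to the region. With 1 library per group no test across replicates of MIPOL1 or ETV1 was possible. The authors' deposited table called no accession of either gene.

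Over the other 24 ETS genes, LSD1 peaks lay within 50 kb of 15 in LNCaP and 14 in VCaP, and inside 3 in LNCaP and 7 in VCaP. Of the 4 ETS members described above, 3 had a peak within 50 kb in LNCaP and 4 in VCaP, and 2 had one inside in either line. H3T6ph peaks lay near 5 of the other 24 ETS genes, 3 of these peaks at SPDEF, and near 0 of the 4. Among protein-coding genes 23.8% held an LNCaP LSD1 peak inside and 22.6% a VCaP LSD1 peak, against 10.1% for H3T6ph. Within 50 kb these shares were 53.0% for LNCaP LSD1, 51.2% for VCaP LSD1 and 25.6% for H3T6ph. ETS1 had 4 LSD1 peaks within 50 kb in LNCaP and 0 in VCaP, and ETV2 had 0 in LNCaP and 3 in VCaP.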

How the data were processed

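The deposited expression values are FPKM for each RefSeq accession in each library, computed by the authors with TopHat2 2.0.4 and Cuffdiff 2.0.1 on hg19, per the submitters' processing notes. The deposited table also holds the authors' p-value and q-value per accession. With 1 library per group these values do not rest on a spread between replicates. Peaks were deposited as 1 list per ChIP sample (Bowtie2 2.0.0 and MACS2, per the submitters' processing notes) with a score whose scale the file does not state. For the control track, duplicates and annotation: not given in the sources used here. TruSeq v2, named in the labels' protocols, does not mark strand, so reads of genes that overlap in antisense are not separable.

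Of 40253 accessions 96.7% were matched to symbols through the RefSeq gene table of GRCh38.p14. FPKM were summed per symbol, 42 symbols with a failed accession were left out, and those reaching 1 FPKM in at least 1 library were kept (12916, of which 11753 protein-coding). Each fold change is LSD1 siRNA over control siRNA as log2(FPKM + 1), which understates low genes. The median over protein-coding genes was -0.01. Gene names follow a fixed rule: the members, every peak near them, list genes past 1.5-fold and the 4 largest differences per list. EHF, ELK4, ETS1, ETV2, some markers of other cell types and the genes nearest to peaks were named outside it, after their values were seen. The table has no read totals. Among low values the most frequent ratio (410 of 5569 accessions under 0.5 FPKM) gave the relative depth. Coordinates are hg19 and 1-based, except the RefSeq promoter runs. A peak was inside or near a gene when 1 base was shared with its interval, alone or widened by 50 kb. Calculations used Python 3.11.15 with pandas 2.3.3, numpy 2.4.6 and scipy 1.17.1, and fold calls and window counts were tested on simulated data. The members and lists were chosen with earlier results of these data known. Alternatives were 2 other pseudocounts, the accession highest in the control library alone, rescaling, no filter, a 2-fold rule, other windows and shortened peak lists. TTC6 had no accession matched. A further 2 luminal markers are not reported here.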

Additional observations from a re-analysis of the deposited data

How the results depend on the processing

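No paired analysis was possible because each group held 1 sample, and no replicate could be left out. The log2 fold changes of TMPRSS2, ETV5 and KDM1A kept their direction and their side of 1.5-fold under every alternative run for them. That of ERG stayed positive, between 0.02 and 0.95, at levels under 1 FPKM. SLC45A3 no longer passed 1.5-fold at a pseudocount of 5 FPKM (-0.58) or after rescaling to the median protein-coding gene (-0.58). With the accession highest in the control library alone, ETV1 passed it (-0.84) and ETV4 changed sign (-0.11). That choice uses 1 of the 2 values compared. For ETV1 it was close, with NM_001163150 at 10.9 FPKM and NM_004956 at 10.8 FPKM with control siRNA. NM_004956 had a log2 fold change of -0.23 and would not pass. Lower members past the rule, 1 in the report, numbered 0 at a pseudocount of 5 FPKM and 0 under a 2-fold rule. They numbered 2 with the accession highest in the control library, where ETV1 was added through that choice. Higher ETS family genes, 1 in the report, numbered 2 at a pseudocount of 0.1 FPKM, 0 at 5 FPKM and 0 under a 2-fold rule.

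Peak counts fell with shorter lists by construction. With the 50% of each list of highest score, LNCaP LSD1 had 3 peaks near members, 1 inside, 3 members with a peak and 5 peaks between ERG and TMPRSS2, VCaP LSD1 had 5 peaks between them, and 1 member had an H3T6ph peak. With every list at the size of the H3T6ph list, LNCaP LSD1 had 3 peaks near 3 members and VCaP LSD1 had 5 peaks near members. Between ERG and TMPRSS2 there were then 3 LNCaP and 5 VCaP LSD1 peaks, so the excess in LNCaP was gone with equal lists. With windows of 20 kb VCaP LSD1 had 5 peaks and H3T6ph 1 peak at 1 member, and with 100 kb VCaP LSD1 had 16. Of 126 recomputed peak counts of single members 103 stayed within 1.5 times and 23 did not. Many of the 103 were counts of 0 in the report. Such a count cannot change with a shorter list or a narrower window, so the 103 do not measure stability. The FPKM table and the peak lists give no depth per gene or site, so a site missing from a list may still be bound.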
